A study of Drosophila melanogaster with 8 samples.

Results

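The proteasome subunit genes were followed in RNA from heads of the fruit fly Drosophila melanogaster after knockdown of row. Members were all genes whose deposited symbol began with Rpn, Rpt, Prosalpha or Prosbeta followed by a digit, and 44 of the 13781 symbols in the count table matched. Of these, 31 named subunits of the particle (6 of the alpha ring, 7 of the beta ring, 10 of the base and 8 of the lid), and 13 were paralogs that carry an added R or T in their names. Prosalpha1, Prosalpha1R, Prosbeta5R2 and Rpt4R, which the RefSeq table of the Release 6 assembly lists under these symbols, were not analysed here. They were not found in the count table under these symbols or their listed synonyms, so the alpha ring lacks Prosalpha1 here.

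The first knockdown group, row_RNAi1, had the genotype Actin-gal4/+; UAS-rowRNAi1/+ and 2 libraries, and the second, row_RNAi2, had the genotype Actin-gal4/+; UAS-rowRNAi2/+ and 3 libraries. The 3 control libraries came from Actin-gal4/+ flies. All groups thus carried the Actin-gal4 driver, a yeast transcription factor under a promoter active in most tissues, and only the knockdown flies carried a UAS transgene making RNA against row, which encodes a chromatin factor. No UAS insertion is named for the control, so the insertion and the knockdown cannot be told apart within a line. All flies were kept at 25 °C with 12 hours of light and 12 hours of dark, and heads were collected 3 days after CO2 exposure. The labels state neither the sex nor the age of the flies. Whether replicate libraries derive from separate flies is also unstated, so the p-values reflect variation between these libraries that could be purely technical.

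The proteasome is the main protease of the cytoplasm and nucleus and degrades proteins tagged with ubiquitin. Its catalytic core is a barrel of stacked rings, in which the beta rings hold the proteolytic sites and the outer alpha rings form the gate. The regulatory particle that caps the barrel has a base, with a ring of ATPases that unfolds substrates, and a lid, which removes ubiquitin. In flies and mammals, the genes of these parts are known to be expressed together, and flies also have testis-specific paralogs of several subunits.

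Reads were counted near transcript 3′ ends, and levels are given as CPM, the count of a gene over the TMM-scaled total of its library. Total counts were 17952015 and 18046699 in row_RNAi1, between 6230666 and 11212213 in row_RNAi2 and between 7015874 and 9437287 in control libraries. The row transcript itself had 5.93 and 4.22 CPM in row_RNAi1 heads and 8.04, 5.97 and 8.28 CPM in row_RNAi2 heads, against 14.3, 14.9 and 12.1 CPM in control heads. Its log2 fold change was -1.44 in row_RNAi1 and -0.90 in row_RNAi2, with adjusted p = 1.81e-05 and 0.00175 (edgeR quasi-likelihood test, Benjamini-Hochberg adjustment over 9442 genes). Markers of head tissue were present in every library, but some of their sums differed by group. The 5 neuronal genes summed to 489 to 500 CPM in row_RNAi1, 484 to 576 CPM in row_RNAi2 and 545 to 576 CPM in control heads, and 6 photoreceptor genes to 22241 to 22922 CPM in row_RNAi1, 23287 to 25405 CPM in row_RNAi2 and 25019 to 25285 CPM in control heads. Both sums were thus lower in row_RNAi1 than in control heads without overlap, while those of row_RNAi2 overlapped the controls. By gene, nSyb, Syt1 and each photoreceptor marker were lower in row_RNAi1, while the neuronal genes elav, brp and para overlapped the controls. The glial gene repo overlapped too, at 19.2 to 21.6 CPM in row_RNAi1, 18.1 to 23.5 CPM in row_RNAi2 and 20.1 to 24.3 CPM in control heads. The 3 fat body genes found summed to 3643 to 4978 CPM in row_RNAi1, 7349 to 9286 CPM in row_RNAi2 and 2781 to 3623 CPM in control heads. Of these, Lsp2 overlapped the controls in row_RNAi1 and exceeded them in row_RNAi2, Rfabg exceeded the controls in both lines, and to lay below them in both. The part of these marker differences in the subunit values was not tested.

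All 31 subunits were expressed in heads and passed the filter on low counts, each with 231 to 1983 counts in a library. Their transcripts differed little from control heads in either knockdown line. In row_RNAi1 heads, 4 genes rose by 18.6% to 22.2%, all of them in the regulatory particle: the lid genes Rpn6 and Rpn5 and the base genes Rpn10 and Rpt3. These were 4 of the 32 members tested (12.5%), beside 11.2% of all genes called higher. No member was called without control replicate 2 (edgeR, with 5 members then at an unadjusted p under 0.05). The calls were also lost without either row_RNAi1 replicate, where 1 library was left in that group. No subunit was called lower in any comparison. In row_RNAi2 heads no subunit passed the threshold in either direction, and no subunit was called different between the lines.

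Rpn6, which in yeast and mammals clamps the lid onto the alpha ring, had 50.3 and 49.4 CPM in row_RNAi1 heads and 44.4, 47.5 and 42.5 CPM in row_RNAi2 heads, against 42.2, 38.8 and 41.5 CPM in control heads. Both row_RNAi1 libraries lay above every other library, and the 3 row_RNAi2 libraries lay above every control library, the nearest by a small margin. The rise in row_RNAi1 was 22.2% (log2 fold change 0.29, SE 0.08, 95% interval 0.13 to 0.45), with adjusted p = 0.0118 in edgeR's quasi-likelihood test with Benjamini-Hochberg adjustment. In row_RNAi2 the log2 fold change was 0.14 with adjusted p = 0.318 in the same edgeR test.

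Rpn5, another scaffold protein of the lid, had 93.4 and 90.8 CPM in row_RNAi1 heads and 88.2, 87.9 and 83.9 CPM in row_RNAi2 heads, against 81.2, 74.5 and 77.6 CPM in control heads. The 3 groups did not overlap, with row_RNAi1 highest and control lowest. The log2 fold change was 0.25 in row_RNAi1 (SE 0.08, edgeR adjusted p = 0.033) and 0.16 in row_RNAi2 (SE 0.07, edgeR adjusted p = 0.219). Rpn5 and Rpn6 were also the subunits called for the mean of both lines, at log2 fold changes of 0.20 and 0.21 and edgeR adjusted p = 0.0396 and 0.0306.

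Rpn10 encodes a receptor that binds ubiquitin chains. It had 76.9 and 73.4 CPM in row_RNAi1 heads and 76.9, 68.0 and 66.7 CPM in row_RNAi2 heads, against 65.3, 60.5 and 63.7 CPM in control heads. All 5 knockdown libraries lay above the controls. The rise in row_RNAi1 was 19.0% (log2 fold change 0.25, SE 0.08, edgeR adjusted p = 0.0439), and the log2 fold change in row_RNAi2 was 0.15 (edgeR adjusted p = 0.287). Rpt3, an ATPase of the base, had 71.8 and 70.6 CPM in row_RNAi1 heads and 60.7, 68.8 and 62.8 CPM in row_RNAi2 heads, against 54.5, 59.5 and 63.5 CPM in control heads. Here row_RNAi1 stood above the controls while row_RNAi2 overlapped them. The rise in row_RNAi1 was 20.2% (log2 fold change 0.26, SE 0.09, edgeR adjusted p = 0.0365).

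Among the 32 members tested, which were the 31 subunits and the paralog Rpn13R, 4 were called higher in row_RNAi1. None was called lower, beside 10.0% of all genes. By unadjusted p under 0.05, 6 members were higher and 0 lower in row_RNAi1, beside 31.2% of all genes in either direction, and DESeq2 called 2 members and limma voom 5. The count of calls higher was near the share over all genes, and the subunits' 4 of 31 (12.9%) lay below the 19.2% called higher among the 1200 tested genes in the subunits' CPM range. In row_RNAi2, edgeR called 0 members, beside 5.49% of all genes called higher and 5.34% called lower, with 7 members at an unadjusted p under 0.05, beside 20.9% of all genes, and 0 called by DESeq2 or voom. For the mean of both lines 2 members were called higher, beside 9.24% of all genes, and 0 lower, beside 8.56%; the unadjusted p was under 0.05 for 10, beside 28.3%. DESeq2 called 1 and voom 3. The count of calls varied with the libraries used. In row_RNAi1 there were 0 without control replicate 2, 2 without control replicate 1 and 5 without control replicate 3. Without row_RNAi1 replicate 1 or 2, that group had 1 library, so a lost call also reflects fewer libraries. The log2 fold changes were then 0.28 and 0.30 for Rpn6 and 0.23 and 0.27 for Rpn5. They were 0.25 and 0.28 for Rpt3 and 0.22 and 0.28 for Rpn10. In row_RNAi2 there were 2 calls without row_RNAi2 replicate 3 (Prosalpha3 and Rpn11) and 1 without control replicate 3 (Rpt2). For the mean of both lines there were 0 without control replicate 2, either row_RNAi1 replicate or row_RNAi2 replicate 2, 3 without control replicate 3, 4 without row_RNAi2 replicate 1 and 5 without row_RNAi2 replicate 3. Both lines were set against the same 3 control libraries.

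**Figure D1:**
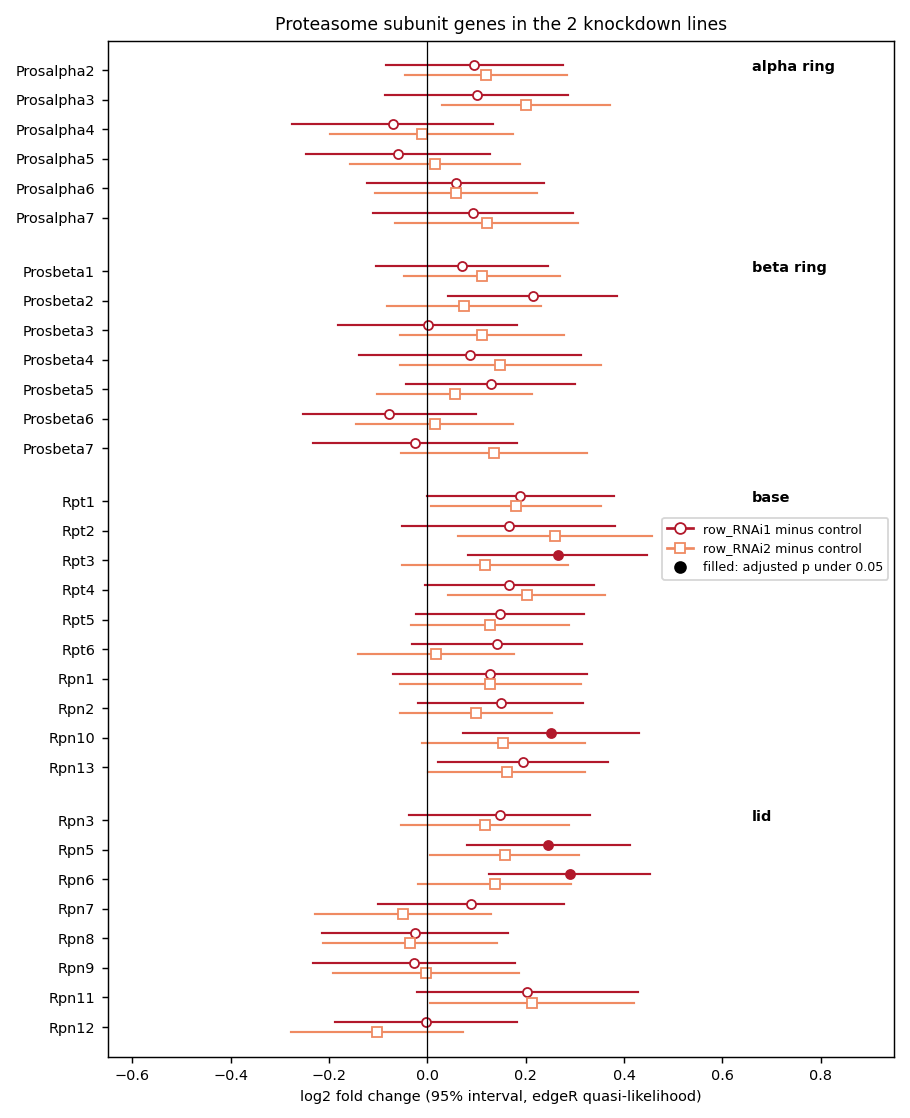
The log2 fold change over control is on the x axis for the 31 subunit genes, grouped by subcomplex, with row_RNAi1 as circles and row_RNAi2 as squares; lines are 95% intervals and filled symbols have an adjusted p under 0.05. Filled symbols appear at Rpt3, Rpn10, Rpn5 and Rpn6 in row_RNAi1, and all 10 base genes lie right of 0 in both lines.

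All 10 genes of the base had a positive log2 fold change in both lines, with a median of 0.17 in row_RNAi1 and 0.14 in row_RNAi2, although the small value of Rpt6 in row_RNAi2, 0.02, turned to -0.02 without control replicate 2 and to -0.01 without row_RNAi2 replicate 2. The median over all genes tested was -0.01 in each line. Besides Rpn10 and Rpt3, no base gene passed the adjusted threshold. Rpt4, another ATPase, had 62.2 and 59.6 CPM in row_RNAi1 heads and 58.4, 67.2 and 61.1 CPM in row_RNAi2 heads, against 52.4, 54.6 and 55.6 CPM in control heads. All 5 knockdown libraries lay above the controls, and the log2 fold change was 0.17 in row_RNAi1 and 0.20 in row_RNAi2, with edgeR adjusted p = 0.174 and 0.113. Rpn13, another ubiquitin receptor of the base, had 86.2 and 87.0 CPM in row_RNAi1 heads and 87.4, 88.9 and 78.0 CPM in row_RNAi2 heads, against 77.0, 74.7 and 75.6 CPM in control heads. All 5 knockdown libraries again lay above the controls, and its log2 fold changes were 0.19 and 0.16 (edgeR adjusted p = 0.112 and 0.231). The ATPase gene Rpt2 had 113 and 99.1 CPM in row_RNAi1 heads and 111, 121 and 108 CPM in row_RNAi2 heads, against 80.6, 102 and 101 CPM in control heads. Control replicate 1 was low for Rpt2, and row_RNAi1 replicate 2 lay below the other 2 controls. Its log2 fold change of 0.26 in row_RNAi2 was the highest among the subunits in that line (edgeR adjusted p = 0.0978).

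The lid was mixed, with positive values for 5 of 8 genes in row_RNAi1 and 4 of 8 in row_RNAi2, and medians of 0.12 and 0.06. Rpn11, the metalloprotease that removes ubiquitin, had 83.6 and 79.4 CPM in row_RNAi1 heads and 88.4, 90.6 and 67.6 CPM in row_RNAi2 heads, against 73.0, 71.6 and 67.8 CPM in control heads. Row_RNAi2 replicate 3 fell below all 3 controls while the other 4 knockdown libraries lay above them. Its log2 fold changes were 0.20 and 0.21, with edgeR adjusted p = 0.209 and 0.223. Rpn8, the inactive partner of Rpn11, Rpn9 and Rpn12 had values at or below 0 in both lines, between -0.10 and 0.00 on the log2 scale. Rpn12 had 44.1 and 44.4 CPM in row_RNAi1 heads and 37.9, 46.3 and 39.0 CPM in row_RNAi2 heads, against 43.7, 46.4 and 42.8 CPM in control heads, so its groups overlapped.

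**Figure D2:**
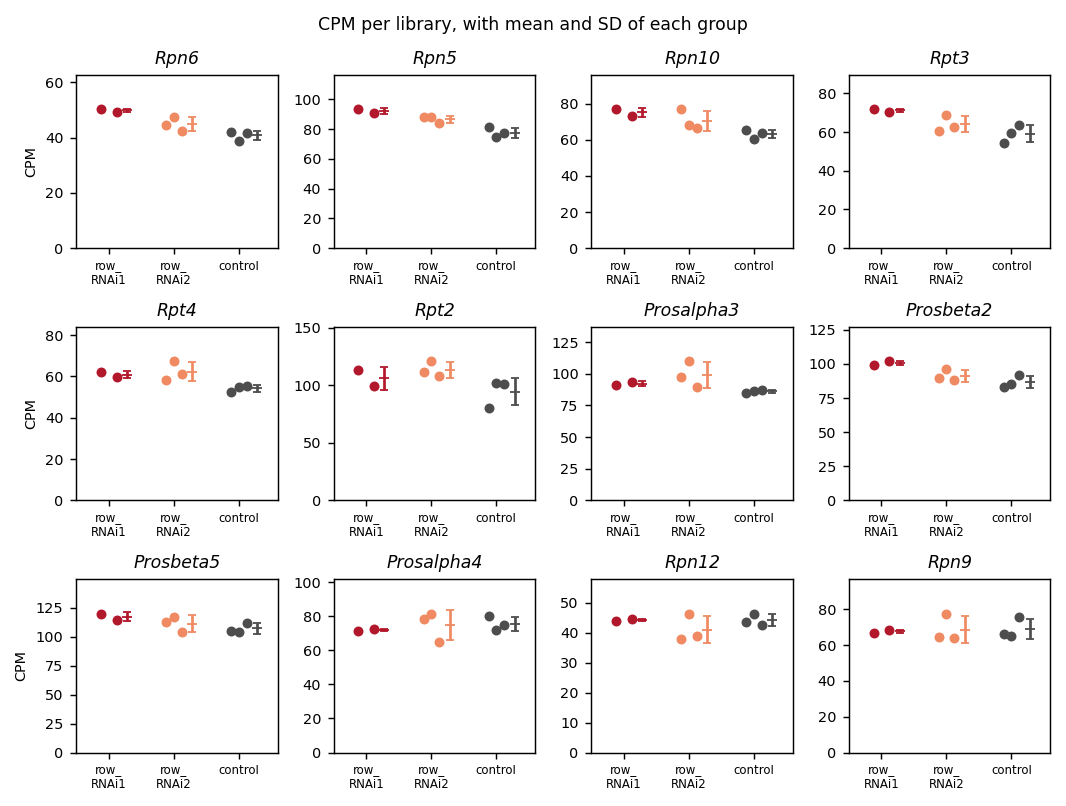
CPM on the y axis for 12 subunit genes, with a point for each library and the mean ± SD beside each group, row_RNAi1 (n = 2), row_RNAi2 (n = 3) and control (n = 3). The row_RNAi1 points of Rpn6, Rpn5, Rpn10 and Rpt3 lie above all control points, whereas the groups of Rpn12 and Rpn9 overlap.

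In the catalytic core, 0 genes were called by the edgeR test on all 8 libraries in any comparison. Without control replicate 3, edgeR called Prosbeta2 in row_RNAi1 (log2 fold change 0.27, adjusted p = 0.0237). Without row_RNAi2 replicate 3, edgeR called Prosalpha3 in row_RNAi2 (log2 fold change 0.27, adjusted p = 0.0495). Prosbeta2 had an unadjusted p under 0.05 in row_RNAi1 and for the mean of both lines, and Prosalpha3 in row_RNAi2; limma voom called Prosbeta2 in row_RNAi1, and DESeq2 called 0 core genes. The alpha ring had a median log2 fold change of 0.08 in row_RNAi1 and 0.09 in row_RNAi2, and the beta ring 0.07 and 0.11. Prosalpha3, whose protein in yeast closes the gate of the barrel, had 91.0 and 93.6 CPM in row_RNAi1 heads and 97.4, 110 and 89.6 CPM in row_RNAi2 heads, against 84.8, 86.3 and 87.2 CPM in control heads. All 5 knockdown libraries exceeded the controls, with row_RNAi2 replicate 2 farthest above them. The log2 fold change was 0.10 in row_RNAi1 and 0.20 in row_RNAi2 (edgeR adjusted p = 0.49 and 0.147). Prosalpha2 had log2 fold changes of 0.10 and 0.12 (edgeR adjusted p = 0.498 and 0.438), and its groups overlapped.

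Prosbeta2, which carries the trypsin-like site, had 99.5 and 102 CPM in row_RNAi1 heads and 89.5, 96.3 and 88.2 CPM in row_RNAi2 heads, against 83.0, 85.2 and 92.1 CPM in control heads. Row_RNAi1 lay above the other groups, and row_RNAi2 overlapped the controls. The log2 fold change was 0.21 in row_RNAi1 and 0.07 in row_RNAi2 (edgeR adjusted p = 0.073 and 0.656). Prosbeta5, with the chymotrypsin-like site, had 120 and 114.6 CPM in row_RNAi1 heads and 113, 117 and 104 CPM in row_RNAi2 heads, against 105, 104 and 112 CPM in control heads. Both row_RNAi1 values exceeded the controls by a small margin, and the log2 fold changes were 0.13 and 0.06 (edgeR adjusted p = 0.309 and 0.755). Prosbeta1, with the caspase-like site, had log2 fold changes of 0.07 and 0.11, also without a call. The lowest value among the subunits in row_RNAi1 was -0.08, for Prosbeta6.

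The precision of these comparisons limits, for each gene taken alone, the changes that could have been missed. Over the 31 subunits, the 95% intervals ran from -0.27 for Prosalpha4 to 0.45 for Rpn6 in row_RNAi1, and from -0.28 for Rpn12 to 0.46 for Rpt2 in row_RNAi2. The intervals thus held no rise over 36.9% in row_RNAi1 or 37.2% in row_RNAi2, and no fall over 17.3% and 17.5%. Each interval holds for its gene alone, so these extremes are not a 95% bound on all 31 subunits together. The whole interval lay within 0.5 of 0 on the log2 scale for 31 of the 32 members tested in row_RNAi1, beside 48.0% of all genes, and for 31 in row_RNAi2, beside 57.8%. Rpn13R was the exception in both. The fitted log2 fold change itself was under 0.25 in size for 28 members in row_RNAi1, beside 60.1% of all genes, and for 30 in row_RNAi2, beside 71.7%. Between control libraries the median SD of log2 CPM was 0.0719 for subunits, 0.130 for all genes tested and 0.0806 for the 1200 tested genes whose level lay in the subunits' range of 42.9 to 111 CPM. Precision depends on the level: of those 1200 genes, 34.9% were called in either direction in row_RNAi1 and 19.2% in row_RNAi2. The median SE in row_RNAi1 was 0.086 for the subunits and for those 1200 genes, but 0.129 for all genes. The shares within 0.5 and under 0.25 were not taken over those 1200 genes, whose median absolute log2 fold change in row_RNAi1 was 0.172, against 0.127 for the subunits.

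Most subunits had small positive values on the TMM scale. As plain shares of library totals, the members summed to 0.223% and 0.226% in row_RNAi1, against 0.236%, 0.224% and 0.228% in control libraries. Row_RNAi2 had 0.235%, 0.248% and 0.235%, overlapping the controls. Before scaling, the members' sum in row_RNAi1 thus lay within or below the control range. Single genes were not tested on that scale. Counting the 32 members tested, the log2 fold change was above 0 for 24 in row_RNAi1, beside 47.8% of all genes, and for 26 in row_RNAi2, beside 47.9%. The value was positive in both lines for 23 of the 31 subunits and negative in both for 4. The sign of small values was not firm, turning under at least 1 alternative for 6 subunits in row_RNAi1 and 7 in row_RNAi2, none of them called. In 7 members every one of the 5 knockdown libraries exceeded all 3 controls, beside 8.90% of all genes tested, and in 0 members did all 5 lie below, beside 8.29%. Taken by line, both row_RNAi1 libraries exceeded all controls in 16 members, beside 24.0% of all genes, and lay below them in 2 (Prosbeta6 and Rpn13R), beside 23.7%. All 3 row_RNAi2 libraries exceeded the controls in 8 members, beside 12.0%, and lay below them in 0, beside 12.4%. The 7 members high in both lines were Rpn5, Rpn6, Rpn10, Rpn13, Rpt1, Rpt4 and Prosalpha3, with Rpt2 added in row_RNAi2. Of the 1200 tested genes in the subunits' CPM range, 580 had a log2 fold change above 0 in row_RNAi1 and 596 in row_RNAi2. The shares without overlap were not taken over those genes. Both lines were set against the same 3 controls, so agreement between the lines is partly built in. The members share libraries and scaling and are not independent of each other.

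**Figure D3:**
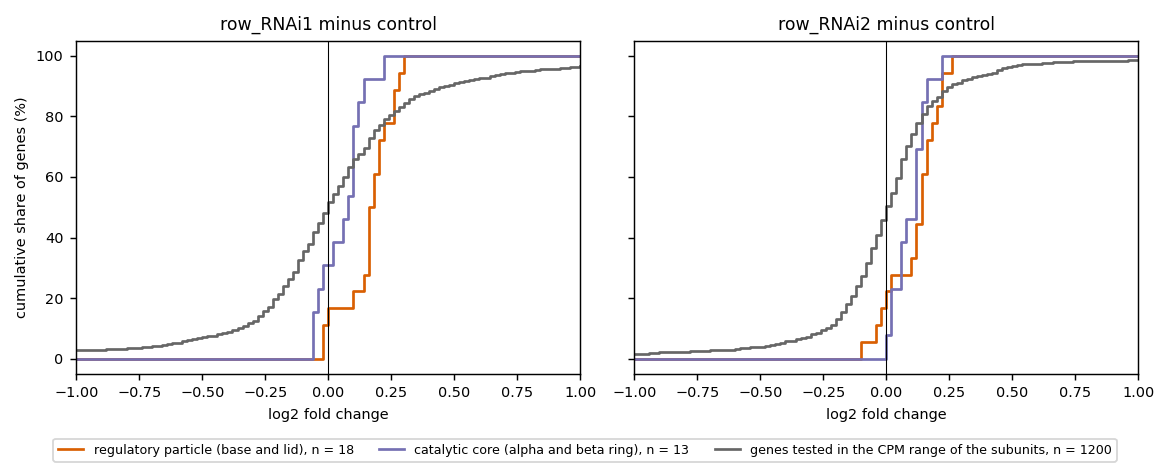
Cumulative share of genes on the y axis against the log2 fold change over control for the regulatory particle (18 genes), the catalytic core (13 genes) and the 1200 tested genes in the CPM range of the subunits, in row_RNAi1 and row_RNAi2. The curves of both parts of the proteasome are steep and lie within 0.3 of 0, with medians of 0.16 and 0.07 in row_RNAi1 and 0.13 and 0.11 in row_RNAi2.

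Summed over subcomplexes, the base genes averaged 758 ± 17.6 CPM in the row_RNAi1 group and 741 ± 41.3 CPM in the row_RNAi2 group, against 668 ± 20.4 CPM in control heads (mean ± SD over 2, 3 and 3 libraries). The lid had 493 ± 1.3 CPM in row_RNAi1 and 475 ± 34.3 CPM in row_RNAi2, against 451 ± 9.2 CPM in control heads. The core had 1135 ± 29.8 CPM in row_RNAi1 and 1165 ± 77.5 CPM in row_RNAi2, against 1092 ± 31.0 CPM in control heads. Both lines lay above control in range for the base. For the lid row_RNAi2 overlapped control, and for the core both lines did. The ratio of summed regulatory to core CPM was 1.09 and 1.11 in row_RNAi1 and 0.995, 1.07 and 1.07 in row_RNAi2, against 1.04, 1.02 and 1.02 in control heads. Both row_RNAi1 ratios exceeded the controls, whereas row_RNAi2 replicate 1 lay below them and the other 2 above. In whole heads, a change in the number of cells of a type and a change in RNA per cell cannot be told apart.

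Libraries also varied within a group. The median log2 deviation of the base genes from their control mean was 0.19 and 0.15 in row_RNAi1, 0.09, 0.22 and 0.08 in row_RNAi2, and between -0.01 and 0.04 in control libraries. Row_RNAi2 replicate 2 was high for every subcomplex, with 30 of 31 subunits above the control mean, and row_RNAi2 replicate 3 was low, with 19. Control replicate 3 had 23 subunits above that mean, and control replicates 1 and 2 had 11 and 14.

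**Figure D4:**
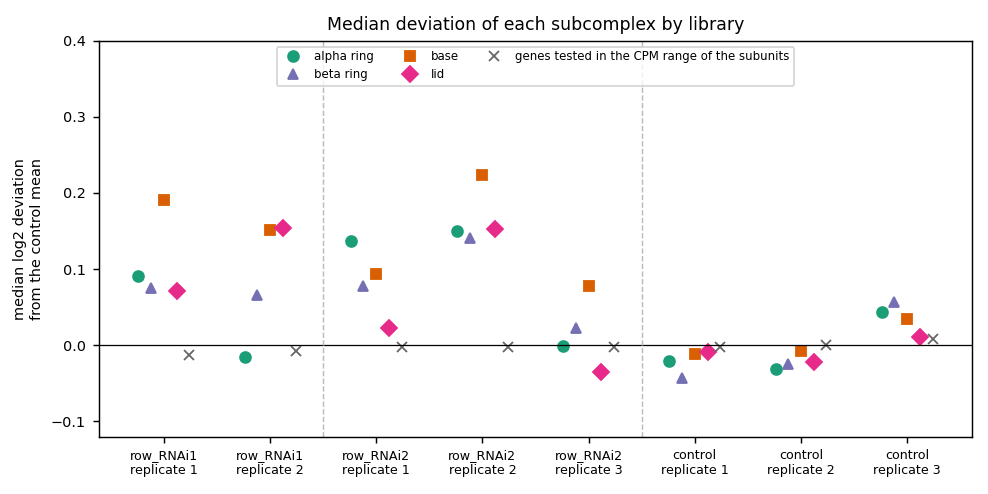
Median log2 deviation from the control mean on the y axis for the genes of the alpha ring, beta ring, base and lid and for tested genes at like levels, in each of the 8 libraries. The base squares of all 5 knockdown libraries lie above those of the controls. The beta ring and lid symbols lie above the controls in row_RNAi1 but overlap them in row_RNAi2, and the alpha ring symbols overlap in both lines.

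Set directly against each other, the lines showed no called difference in a subunit. In row_RNAi2 against row_RNAi1, edgeR called 0 of 32 members, beside 11.3% of all genes, with 0 at an unadjusted p under 0.05, beside 23.3%, and 0 called by DESeq2 or voom. All 31 subunit intervals of this difference spanned 0, from -0.33 for Rpt3 to 0.37 for Prosbeta7. For Rpn6 the difference was -0.15 (edgeR adjusted p = 0.252) and for Rpt3 -0.15 (edgeR adjusted p = 0.33). A larger value in row_RNAi1 than in row_RNAi2 was seen for 13 of 18 regulatory genes and for 2 of 13 core genes, as a description without a test.

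In control heads the mean CPM of core genes ran from 67.6 to 107 and that of regulatory genes from 40.8 to 94.5, so the parts overlapped. Dividing CPM by coding length, beta ring genes had 92.6 to 159 CPM per kb and alpha ring genes 84.0 to 123, while base genes had 17.9 to 71.8 and lid genes 31.0 to 76.6. Prosbeta4 was highest and Rpn1, the large scaffold of the base, lowest. Because reads were counted near 3′ ends, CPM is not meant to scale with length, and the division lowers the values of long genes by construction. In CPM the subunits ranged from 42.9 for Rpn7 to 111 for Prosbeta5 over all libraries.

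The paralogs were nearly silent in heads. The 12 paralogs other than Rpn13R had 1 to 11 counts each over all 8 libraries, against 3843 to 9935 for the subunits they are named after, and none passed the filter on low counts. Together they had 6 and 10 counts in row_RNAi1, 2, 4 and 17 in row_RNAi2, and 2 in each control library. Row_RNAi2 replicate 3 stood apart, with 9 of the 12 detected, against 5 and 6 in row_RNAi1 libraries, 2 and 3 in the other row_RNAi2 libraries, and 1 or 2 in control libraries. Scaled for depth, this was 1.51 CPM in row_RNAi2 replicate 3, between 0.328 and 0.578 CPM in the other 4 knockdown libraries and between 0.207 and 0.263 CPM in control libraries. No fold is given, since each of these paralogs had at most 3 counts in a library, the limit that a count of 0 allows.

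The summed testis markers were also highest in that library, though not each of them. In row_RNAi2 replicate 3, topi had 1 count, against 8 in row_RNAi2 replicate 2. There twe had 12 counts, against 13 in control replicate 2, and S-Lap1 had 11, against 9 in control replicate 3. Of 20 listed testis genes 15 were found, and bol and janB, above 5 CPM in heads, were set aside. The other 13 summed to 3.51 and 3.64 CPM in row_RNAi1, 4.76, 4.98 and 10.9 CPM in row_RNAi2, and 3.28, 4.24 and 3.01 CPM in control libraries. All 13 had a count in row_RNAi2 replicate 3 and 11 in row_RNAi2 replicate 2, against 4 to 6 in each of the other libraries. The sperm genes dj, ocn and Mst84Da had counts in row_RNAi2 replicates 2 and 3 and in no other library. Of the 13, 6 were at 0 in every row_RNAi1 and control library (dj, ocn, Mst84Da, Mst98Ca, S-Lap3 and S-Lap7). Whether testis RNA contributed to the paralog counts was not tested.

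**Figure D5:**
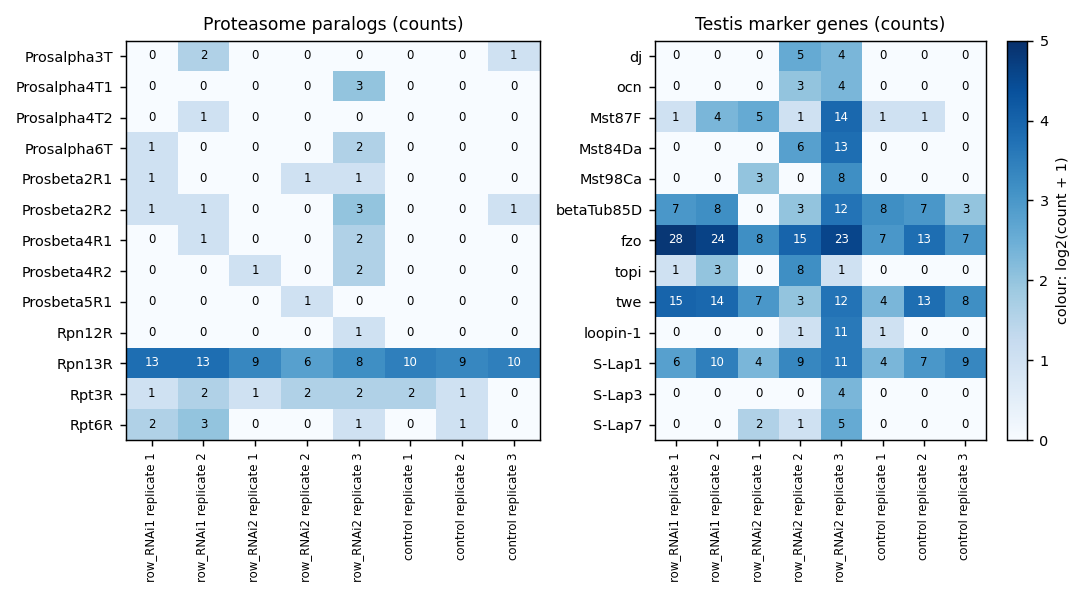
Raw counts in each library for the 13 proteasome paralogs (left) and 13 testis marker genes (right), with libraries along the x axis and colour giving log2(count + 1). Row_RNAi2 replicate 3 holds 17 paralog counts besides Rpn13R and has a count for every testis marker.

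Rpn13R, the paralog of the ubiquitin receptor gene Rpn13, was the exception among paralogs and was detected in every library. It had 13 and 13 counts in row_RNAi1 and 9, 6 and 8 in row_RNAi2, against 10, 9 and 10 in control libraries. In CPM this was 0.787 and 0.751 in row_RNAi1 and 1.48, 0.543 and 0.712 in row_RNAi2, against 1.31, 0.930 and 1.12 in control heads. Both row_RNAi1 values lay below the controls and row_RNAi2 overlapped them. The log2 fold change was -0.52 in row_RNAi1 (95% interval -1.47 to 0.43, edgeR adjusted p = 0.481), so a change of this gene was not detectable at this depth. Whether reads were split between it and other family members is not known.

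Subunit genes often sat beside a gene transcribed away from them. In the BDGP6 annotation, a later build than the dm3 of the deposited counts and used here only for neighbours, 17 of 31 subunits (54.8%) had a neighbour on the other strand starting within 500 bp, head to head, against 2907 of 9375 genes tested (31.0%). Of the 17 partners 16 were tested, and 1 was called in each line, a share of 6.25% beside 21.2% of all genes called in either direction in row_RNAi1 and 10.8% in row_RNAi2. The partner of Prosbeta2, mRpL39, a mitochondrial ribosomal protein gene, had a log2 fold change of 0.76 in row_RNAi1 and 0.26 in row_RNAi2 (edgeR adjusted p = 0.000142 and 0.25). The partner of Rpn13, the cysteine protease gene Cp1, had 0.13 and 0.21 (edgeR adjusted p = 0.236 and 0.0434). The call of Cp1 in row_RNAi2 was lost with no count filter and on leaving out any library other than control replicate 3. Exons overlapped those of another gene on the other strand for 12 subunits (38.7%), among them Prosalpha2, Rpt2, Rpt4, Rpt5, Rpt6 and Prosbeta1 to Prosbeta5. Among genes tested, 3877 of 9375 (41.4%) had exons overlapping another gene on either strand. Without stated use of strand, the counts of these 12 subunits may hold reads of the neighbour. Rpn5, Rpn6, Rpn10 and Rpt3 had no such overlap.

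Around the proteasome, 48 genes of ubiquitin tagging, proteasome assembly and proteasome gene control were tested. In row_RNAi1, 3 were called higher (eff, Ubc6 and Pngl) and 1 lower (Npl4), with a median log2 fold change of 0.03. These are shares of 6.25% and 2.08%, beside 11.2% of all genes called higher and 10.0% called lower. In row_RNAi2, edgeR called 0 higher, as did DESeq2 and voom, with Cul3 alone higher at an unadjusted p under 0.05, and 1 lower (Npl4), a share of 2.08%, with a median of -0.02. Over all genes, 5.49% were called higher and 5.34% lower in row_RNAi2. Npl4, a cofactor of the ATPase that extracts ubiquitin-tagged proteins for degradation, had 44.2 and 46.4 CPM in row_RNAi1 heads and 54.3, 47.2 and 50.0 CPM in row_RNAi2 heads, against 67.1, 63.6 and 65.5 CPM in control heads. All knockdown libraries lay below all controls. Npl4 fell in both lines, with log2 fold changes of -0.53 (SE 0.08, edgeR adjusted p = 8.59e-05) in row_RNAi1 and -0.38 (edgeR adjusted p = 0.00184) in row_RNAi2.

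The ubiquitin-conjugating enzyme gene eff had 158 and 154 CPM in row_RNAi1 heads and 122, 124 and 125 CPM in row_RNAi2 heads, against 131, 126 and 123 CPM in control heads. It was high in row_RNAi1 alone, with a log2 fold change of 0.30 (edgeR adjusted p = 0.00632) there and -0.03 (edgeR adjusted p = 0.85) in row_RNAi2. Its difference between row_RNAi2 and row_RNAi1 was -0.33 (edgeR adjusted p = 0.00535). The call in row_RNAi1 was lost without row_RNAi1 replicate 1 (0.28, edgeR adjusted p = 0.0911), and that between the lines without either row_RNAi1 replicate. Ubc6, another such enzyme, had log2 fold changes of 0.26 (edgeR adjusted p = 0.0313) and 0.10 (edgeR adjusted p = 0.529), and its call in row_RNAi1 was lost without control replicate 1 or 2 or either row_RNAi1 replicate. Pngl, whose relative in worms and mammals removes sugars from a transcription factor of proteasome genes, had 20.0 and 15.4 CPM in row_RNAi1 heads and 14.3, 17.2 and 14.5 CPM in row_RNAi2 heads, against 13.5, 13.0 and 12.7 CPM in control heads. All 5 knockdown libraries exceeded the controls, with log2 fold changes of 0.44 (edgeR adjusted p = 0.0258) and 0.24 (edgeR adjusted p = 0.329). Its call in row_RNAi1 was lost with DESeq2, without any 1 of the control libraries, and without row_RNAi1 replicate 1, at 0.24 (edgeR adjusted p = 0.395).

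Genes chosen after their values were seen are cnc, maf-S and Pomp. The gene cnc, the fly relative of the mammalian factors that drive proteasome genes, had 136 and 132 CPM in row_RNAi1 heads and 111, 114 and 116 CPM in row_RNAi2 heads, against 118, 107 and 126 CPM in control heads. Row_RNAi1 lay above both other groups, but neither line was called against control, at log2 fold changes of 0.20 and -0.04. Without control replicate 3, cnc was called higher in row_RNAi1 (0.26, edgeR adjusted p = 0.0226). Its difference between row_RNAi2 and row_RNAi1, -0.24 (edgeR adjusted p = 0.0733), was called with limma voom (adjusted p = 0.0369) and without control replicate 3 (edgeR adjusted p = 0.0446). Its binding partner maf-S had 154 and 164 CPM in row_RNAi1 heads and 118, 129 and 139 CPM in row_RNAi2 heads, against 136, 142 and 137 CPM in control heads. The difference of maf-S between row_RNAi2 and row_RNAi1 was -0.30 (edgeR adjusted p = 0.0231), and this call was lost without either row_RNAi1 replicate or row_RNAi2 replicate 1 or 2. Pomp, which helps assemble the core, had log2 fold changes of -0.12 and -0.07, and REG, which encodes another activator cap, -0.04 and -0.17, all without a call. Cul3, the scaffold of a ubiquitin ligase, had 0.21 and 0.27 (edgeR adjusted p = 0.149 in row_RNAi2), also without a call.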

How the data were processed

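The authors deposited raw counts, whole numbers of reads per gene symbol for 8 libraries of 3′ RNA-seq; per the submitters' processing notes reads were aligned with STAR to dm3. The counting program, its annotation and its use of strand are not given in the sources used here. From these counts, edgeR 4.0.16 in R 4.3.3 was run on all 8 libraries with 3 groups (TMM factors, filterByExpr, quasi-likelihood test), and p-values were adjusted by Benjamini-Hochberg over 9442 genes and called under 0.05. SE is the log2 fold change divided by the root of the F statistic. DESeq2 1.42.0, limma 3.58.1 voom, other scalings and filters, a replicate block and leaving out each library were alternatives. The fit was also run on simulated counts with the same change in both lines, and checked there for the mean of both lines only. Members, gene lists and the rule for named genes (every member called, the 2 smallest p of each subcomplex for the mean of both lines, and listed pathway genes by the same kind of rule) were chosen with earlier results of these data known. Before TMM scaling, the members' share of counts was 0.223% and 0.226% in row_RNAi1. It was 0.235%, 0.248% and 0.235% in row_RNAi2, and 0.236%, 0.224% and 0.228% in control libraries. TMM factors were 0.921 and 0.959 in row_RNAi1, 0.979, 0.986 and 1.05 in row_RNAi2, and 1.09, 1.03 and 0.999 in control libraries. None of the 7 pairs of libraries within a group agreed within sampling noise. Intervals cover the spread between libraries, and floors of 3 counts cover counting error only.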

Additional observations from a re-analysis of the deposited data

How the results depend on the processing

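No called value changed sign under an alternative. Values near 0 did: among subunits, 6 in row_RNAi1 (at most 0.09 in size, as for Prosalpha7, -0.05 without row_RNAi1 replicate 1) and 7 in row_RNAi2 (at most 0.05 in size, Rpt6 among them), and among the other genes cnc in row_RNAi2 (0.04 without control replicate 3), Pomp in row_RNAi2 (0.00 without row_RNAi2 replicate 3) and REG in row_RNAi1 (0.01 without control replicate 3). The median log2 fold change of the 31 subunits stayed between 0.095 and 0.141 in row_RNAi1 and between 0.076 and 0.153 in row_RNAi2 over all alternatives, while that of all genes stayed within 0.031 of 0. Scaling by plain library totals was not among the alternatives. Counts of calls were less stable. In row_RNAi1, 2 members were called higher with DESeq2 (Rpn5, Rpn6) and 2 with the replicate block (Rpn6, Rpt3), in place of 4. Upper-quartile scaling gave 3 (Rpn5, Rpn6, Rpt3), without Rpn10 (adjusted p = 0.0578 in edgeR). In row_RNAi2, 1 was called with no count filter (Rpt2), in place of 0. For the mean of both lines, in place of 2, DESeq2 called 1, no count filter gave 5, the replicate block 0 and the knockdown libraries as 1 group 0, with 10 and 7 members at an unadjusted p under 0.05 in the last pair; with 1 group, 834 genes were called in place of 1680. Replicate numbers did not pair the samples: correlations between libraries of the same number ran from -0.104 to 0.0676. Leaving out each library in turn gave 0 to 5 calls higher in row_RNAi1, 0 to 2 in row_RNAi2 (2 without row_RNAi2 replicate 3, Prosalpha3 and Rpn11, and 1 without control replicate 3, Rpt2), and 0 to 5 for the mean of both lines (0 without control replicate 2, either row_RNAi1 replicate or row_RNAi2 replicate 2, and 5 without row_RNAi2 replicate 3). It gave 0 calls between the lines throughout and 0 calls lower. Over all genes it gave 1226 to 2150 calls in row_RNAi1, 786 to 932 in row_RNAi2, 1312 to 1762 for the mean and 555 to 1110 between the lines. Where a row_RNAi1 library was left out, the lone library was assumed to vary like the other groups. The adjusted p in row_RNAi1 ran over the alternatives from 0.00731 to 0.0861 for Rpn6, 0.0152 to 0.196 for Rpn5, 0.0134 to 0.186 for Rpt3 and 0.0206 to 0.252 for Rpn10 (edgeR, DESeq2 or limma voom). Npl4 was called lower in both lines under every alternative. The call of eff between the lines was lost without either row_RNAi1 replicate, and those of maf-S and Cp1 were lost without each of several libraries. The replicate block also ended the calls of Pngl in row_RNAi1 (adjusted p = 0.0707 in edgeR) and of Cp1 in row_RNAi2, and no count filter that of Cp1 (adjusted p = 0.0689 in edgeR). The block also brought a call of cnc between the lines (adjusted p = 0.049 in edgeR). Depth limits the paralogs, and the subunits too: with 310 to 1010 counts of a subunit in a control library, counting error alone has a median of 0.0582 on the log2 scale, beside a median SD between controls of 0.0719.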
